A study of Mus musculus with 4 samples.

Results

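Interferon-stimulated genes and the genes of MHC class I antigen presentation were examined in mesenchymal stromal cells (MSCs) of adult mouse bone marrow. The members are 45 genes chosen by symbol, and all 45 are among the 56980 genes of the count table. RNA was sequenced from 4 libraries, 1 from each of 4 male wild-type C57BL/6J mice aged 14 weeks, from a colony inbred in-house. From each mouse 100 cells were sorted from marrow and digested bone as negative for CD45, Ter119, CD31 and Sca1 and positive for CD51 and PDGFRa. The 4 libraries form 1 untreated group, so there was no condition to compare, and no mouse had been given interferon or an infection as far as the labels state. The values below are TPM, a level corrected for gene length and scaled to the same total in each library, listed in the order of mice 1, 2, 3 and 4.

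Interferons are secreted proteins that warn cells of infection. Type I interferons bind a receptor made of IFNAR1 and IFNAR2, and interferon gamma binds IFNGR1 and IFNGR2. Both receptors act through JAK kinases and STAT proteins. STAT2 and IRF9 belong to a complex that binds the interferon-stimulated response element (ISRE) in the promoters of target genes, and the gamma-activated site (GAS) is the element known from the response to interferon gamma. The targets include enzymes that attack viral RNA, GTPases that attack the membranes around intracellular pathogens, and the machinery that loads peptides onto class I molecules for inspection by T cells. In the marrow, interferons are known to act on blood stem cells and on the stromal cells around them.

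The promoters of these genes were compared with those of all genes, using RefSeq sequences of build GRCm38.p6 that run from 250 bases before to 50 bases after each start. The ISRE core was searched as GAAANNGAAA on both strands and the GAS as TTCNNNGAA, which reads the same on both strands. Of the 45 members 34 had a promoter in the reference. The ISRE core was present in 16 of these 34 (47.1%), against 1079 of 27025 genes (3.99%), and the GAS in 9 of 34 (26.5%), against 9.55% of genes. By role, the ISRE core was found in 4 of 4 interferon-inducible GTPases, 6 of 10 antiviral effectors and brakes, 2 of 2 nucleic acid sensors, 2 of 4 IFITM genes, 1 of 5 class I genes, 1 of 5 transcription factors and 0 of 4 receptor chains. The matches of both motifs overlapped in Bst2 and Ifitm3. Such a match describes the letters of the window and not a bound site. Since the members were chosen as interferon-stimulated and class I genes, these shares describe that choice and were not tested.

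The windows below are shown because the levels of these genes differ most clearly in kind: Isg15, Ifit1, Ifit3 and Gbp2 were near 0 in some mice, whereas B2m, Ifitm3 and Ifitm5 were high in every mouse. They were chosen after the values were seen. Each covers 200 bases, 170 before and 30 from the start on, written 5′ to 3′ along the gene, with the ISRE core in either direction in capitals.
Isg15 promoter, chr4:156200789-156200988, minus strand: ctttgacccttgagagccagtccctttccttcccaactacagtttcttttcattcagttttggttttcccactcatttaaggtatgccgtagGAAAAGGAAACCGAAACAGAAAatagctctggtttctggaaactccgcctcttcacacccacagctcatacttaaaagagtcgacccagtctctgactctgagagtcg
Ifit1 promoter, chr19:34640719-34640918, plus strand: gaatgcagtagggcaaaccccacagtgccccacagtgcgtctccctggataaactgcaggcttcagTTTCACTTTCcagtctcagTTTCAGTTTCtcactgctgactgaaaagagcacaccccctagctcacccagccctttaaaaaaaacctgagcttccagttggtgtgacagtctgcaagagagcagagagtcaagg
Ifit3 promoter, chr19:34583359-34583558, plus strand: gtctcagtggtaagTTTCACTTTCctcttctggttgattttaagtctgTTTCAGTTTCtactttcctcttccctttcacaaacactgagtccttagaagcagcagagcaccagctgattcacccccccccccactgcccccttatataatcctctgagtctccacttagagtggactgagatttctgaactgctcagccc
Gbp2 promoter, chr3:142620493-142620692, plus strand: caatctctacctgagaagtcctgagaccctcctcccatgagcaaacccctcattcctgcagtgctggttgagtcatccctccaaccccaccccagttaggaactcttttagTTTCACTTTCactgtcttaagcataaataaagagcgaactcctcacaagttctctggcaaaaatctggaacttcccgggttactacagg
B2m promoter, chr2:122147517-122147716, plus strand: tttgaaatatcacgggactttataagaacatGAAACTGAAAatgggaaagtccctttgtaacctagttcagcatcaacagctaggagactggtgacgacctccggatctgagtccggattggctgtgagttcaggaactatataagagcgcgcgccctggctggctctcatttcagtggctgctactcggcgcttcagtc
Ifitm3 promoter, chr7:141010715-141010914, minus strand: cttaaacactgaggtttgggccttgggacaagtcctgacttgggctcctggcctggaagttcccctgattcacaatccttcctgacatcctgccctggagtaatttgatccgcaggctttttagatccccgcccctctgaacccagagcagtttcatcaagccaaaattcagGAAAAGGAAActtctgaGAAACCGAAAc
Ifitm5 promoter, chr7:140950214-140950413, minus strand: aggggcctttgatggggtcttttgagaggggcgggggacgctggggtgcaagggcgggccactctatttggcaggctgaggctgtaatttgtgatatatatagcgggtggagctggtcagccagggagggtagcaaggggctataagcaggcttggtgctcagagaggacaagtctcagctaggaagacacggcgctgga

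In Isg15 the cores began at positions -78, -72 and -66 from the start and formed 1 overlapping run. The cores of Ifit1 began at -104 and -85, those of Ifit3 at -156 and -122, and that of Gbp2 at -59. B2m carried 1 core at -139. In Ifitm3 both cores lay after the start, at 2 and 19, and Ifitm5 had none in its window.

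Of the 45 members 42 had a median TPM above 1 over the 4 mice, the cutoff for expression that the study uses. Over all genes with a length the share above this cutoff was 22.9%, and over protein-coding genes it was 44.2%. In every one of the 4 mice, 29 members were above 1 TPM, against 15.4% of all genes and 30.1% of protein-coding genes. At least 3 counts in every mouse were found for 33 members, against 18.1% of all genes, and 0 members had under 3 counts in every mouse. The members were chosen with earlier results of these data known, so these shares describe the list and were not tested. The median over the members of the median TPM was 21.02, and over all expressed genes it was 8.35. A median above 100 TPM was reached by 10 members and above 1000 TPM by 6, namely B2m, H2-D1, Ifitm3, Ifitm5, Ifitm2 and H2-K1.

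**Figure D1:**
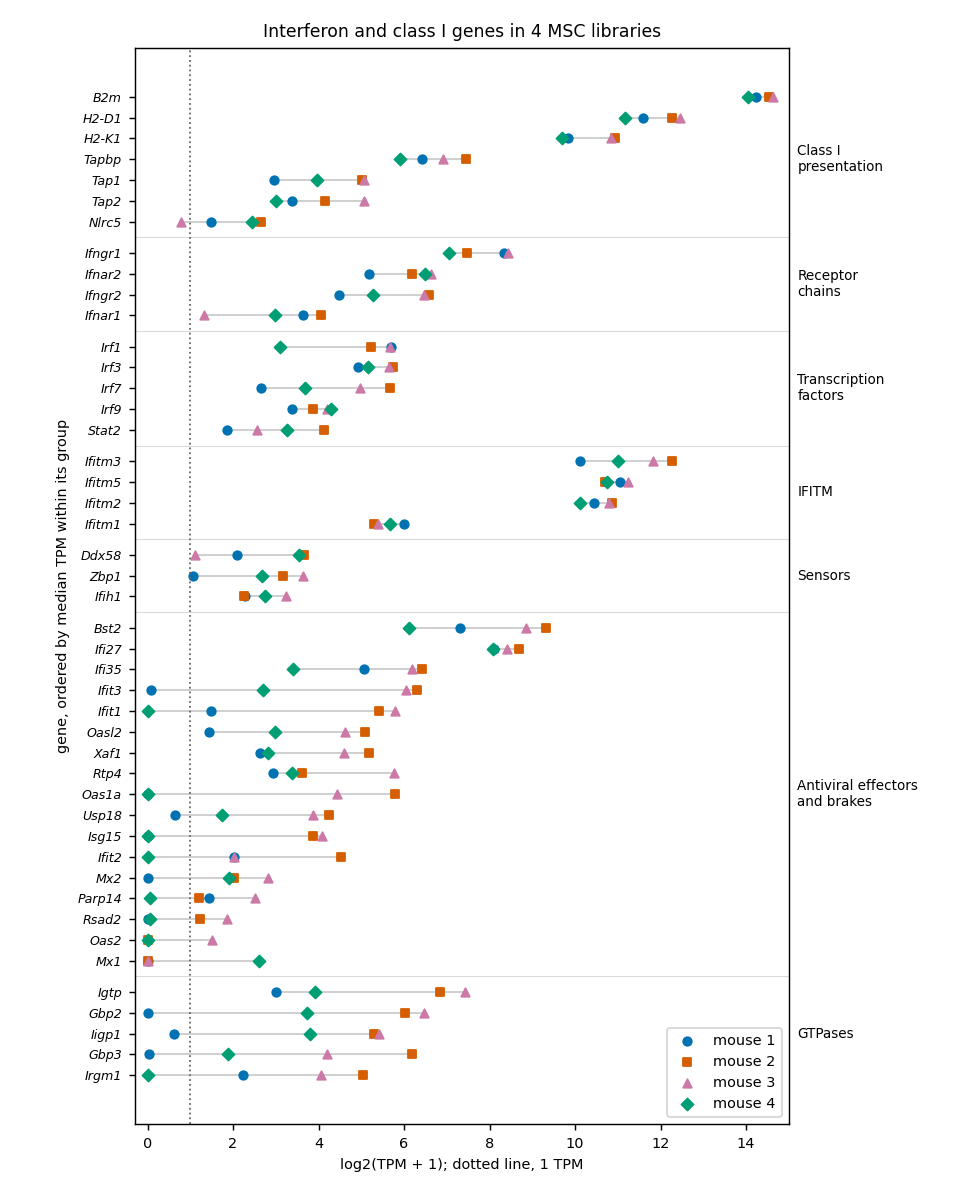
Level of each of the 45 genes in each mouse as log2(TPM + 1), grouped by role and ordered by median within a group, with a grey line from the lowest to the highest mouse and a dotted line at 1 TPM. B2m, H2-D1, H2-K1 and the IFITM genes other than Ifitm1 lie furthest to the right, and among the antiviral effectors and GTPases many lines run from 0 to above 4.

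The class I genes had the highest summed level of the 7 roles, most of it from B2m, whereas the median of the members' medians was higher for the IFITM genes (1748 TPM) than for class I (102 TPM). B2m, the light chain shared by all class I molecules, had 19385, 23914, 25240 and 16847 TPM (21347 ± 3909, mean ± SD, n = 4), and ranked 6 among all genes by median. H2-D1, a class I heavy chain, had 3087, 4926, 5583 and 2297 TPM, and H2-K1, the other classical heavy chain of this strain, had 914, 1963, 1820 and 829 TPM. Together these 3 genes made up 2.34%, 3.08%, 3.26% and 2.00% of all TPM in mice 1 to 4. The light chain exceeded the sum of the heavy chains in every mouse, with a ratio of 4.85, 3.47, 3.41 and 5.39. Parts of H2-D1 amounting to 20.4% of its transcript are near-identical to other genes, most of it to H2-Q7, which had between 1178 and 3604 counts, whereas H2-K1 and B2m had no such copy.

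The genes that load class I molecules were lower. Tapbp, which encodes tapasin and bridges class I molecules to the peptide transporter, had 85.2, 174, 120 and 59.2 TPM. A noncoding gene on the opposite strand covers 24.9% of its exonic bases, had 0 counts in every mouse, and cannot be separated because the counting used no strand. The transporter itself is a pair of Tap1 and Tap2. Tap1 had 6.76, 31.4, 32.3 and 14.5 TPM, and Tap2 had 9.47, 16.8, 32.5 and 7.04 TPM. Nlrc5, the transactivator of class I genes, was the lowest of the group with 1.78, 5.25, 0.729 and 4.44 TPM. Mouse 3 was highest for B2m, H2-D1, Tap1 and Tap2 and was lowest for Nlrc5. Among 14 further class I genes and genes of peptide supply, 14 had a median above 1 TPM and 13 were above 1 TPM in every mouse. The highest were Pdia3, a chaperone of the loading complex, with 742, 859, 1019 and 407 TPM, and H2-T23, a nonclassical class I gene, with 115, 447, 292 and 186 TPM.

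The receptor chains were present in every mouse. Ifngr1, the ligand-binding chain for interferon gamma, was the highest with 325, 176, 344 and 132 TPM. Its signalling partner Ifngr2 had 21.4, 94.8, 86.9 and 37.8 TPM. Ifnar2, the chain that binds type I interferons with high affinity, had 35.4, 72.2, 97.9 and 89.1 TPM, and Ifnar1 had 11.5, 15.7, 1.49 and 6.91 TPM. In the order of medians, Ifngr1 was followed by Ifnar2, Ifngr2 and Ifnar1. The ranges of Ifnar2 and Ifngr2 overlapped over most of their length, whereas Ifngr1 lay above and Ifnar1 below the range of every other chain.

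Levels of paired chains and paralogs were compared within each mouse as the difference in log2(TPM + 1), and tested by exact permutation of the signs of the 4 differences, two-sided, with Benjamini-Hochberg adjustment over 7 pairs. With 4 mice the smallest p this test can give is 0.125, so no pair can pass a threshold of 0.05. Ifngr1 was above Ifngr2 in 4 of 4 mice, by 2.13 ± 1.25 (SD), and above Ifnar1 in 4 of 4 mice, by 4.82 ± 1.62. Ifnar1 was below Ifnar2 in every mouse, with a difference of -3.12 ± 1.67. The difference of H2-K1 minus H2-D1 varied least between mice, at -1.54 ± 0.18. Each of these 4 pairs reached p = 0.125 in the exact test (adjusted p = 0.219). Tap1 was higher than Tap2 in 2 of 4 mice, with a difference of 0.34 ± 0.67 (exact p = 0.5, adjusted p = 0.583). With the longest transcript as length this difference was 0.67 (exact p = 0.25), so its size depended on the length used. Ifitm3 was above Ifitm2 in 3 of 4 mice, by 0.75 ± 0.75 (exact p = 0.25, adjusted p = 0.35). It was above Ifitm5 in 3 of 4 mice, by 0.36 ± 1.03 (exact p = 0.625, adjusted p = 0.625), and without mouse 2 this difference was -0.037.

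**Figure D2:**
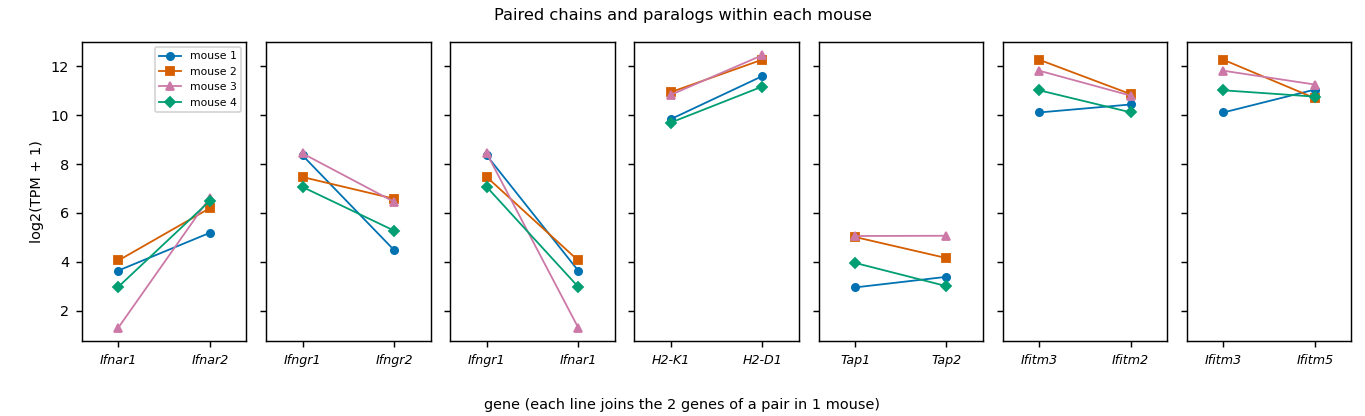
log2(TPM + 1) of the 2 genes of each of the 7 pairs, with a line for each mouse. The 4 lines run in the same direction for the Ifnar1 and Ifnar2, Ifngr1 and Ifngr2, Ifngr1 and Ifnar1, and H2-K1 and H2-D1 pairs, and cross for Tap1 and Tap2 and for both Ifitm3 pairs.

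Transcripts of the interferons themselves were hardly seen. Of 20 interferon ligand genes, 19 had 0 counts in every mouse, and Ifnb1 had 1 count, in mouse 1. At this depth 3 counts correspond to between 0.0689 and 0.132 counts when a library is scaled to 1000000, so lower levels were not detectable. The remaining signalling genes were mostly present. Of 15 signalling partners and brakes, 12 had a median above 1 TPM and 10 were above it in every mouse. The highest were Socs3, a feedback inhibitor of JAK kinases, with 141, 160, 433 and 74.6 TPM, and Ptpn2, a phosphatase that acts on JAK and STAT proteins, with 37.5, 65.5, 50.2 and 29.3 TPM.

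All 5 transcription factors had more than 1 TPM in every mouse. Irf1, which is induced by interferon gamma and acts on class I genes, had 50.6, 36.8, 50.3 and 7.57 TPM, with mouse 4 far below the others. Irf3, which waits in the cytoplasm until a nucleic acid sensor activates it, varied little, with 29.2, 52.8, 49.2 and 34.9 TPM. Irf7, itself an interferon target that amplifies type I interferon production, had 5.31, 50.1, 30.1 and 11.9 TPM. Irf9 had 9.40, 13.7, 17.2 and 18.6 TPM, and was the only member of this group highest in mouse 4. Stat2 had between 2.65 and 16.4 TPM. The coefficient of variation between mice (CV, the SD as percent of the mean) was 27.1% for Irf3 and 27.9% for Irf9, against 82.5% for Irf7.

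The IFITM genes encode small membrane proteins. Ifitm1, Ifitm2 and Ifitm3 hinder the entry of viruses, and Ifitm5 is known as a gene of osteoblasts and not of the interferon response. Ifitm3 had 1102, 4906, 3597 and 2065 TPM, a CV of 57.5%. Ifitm2 had 1382, 1854, 1777 and 1106 TPM, and Ifitm5 had 2108, 1652, 2432 and 1726 TPM, which gave CVs of 22.9% and 18.3%. Ifitm1 was lower, with 63.2, 38.1, 41.1 and 50.2 TPM, and was highest in mouse 1, where Ifitm3 was lowest. The order of Ifitm3 and Ifitm5 therefore differed between mice, with Ifitm5 above Ifitm3 in mouse 1. Near-identical copies cover 69.8% of the Ifitm2 transcript, 36.2% of Ifitm1 and 34.8% of Ifitm5. The largest copies, Gm11951 for Ifitm2, Gm7676 for Ifitm1 and Gm45717 for Ifitm5, had between 0 and 96 counts. Gm45717 also shares 40.9% of the exonic bases of Ifitm2 and 29.7% of those of Ifitm5 on the same strand. Reads there may have been lost, so both levels may be too low, also beside Ifitm3.

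Of the 17 antiviral effectors and brakes, 14 had a median above 1 TPM, but only 6 were above 1 TPM in every mouse. Bst2, which encodes tetherin and holds budding viruses at the cell surface, had 158, 637, 464 and 68.6 TPM. Ifi27, a small interferon-inducible membrane protein, was the steadiest of the group with 276, 410, 340 and 269 TPM and a CV of 20.3%. Ifi35, an interferon-inducible leucine zipper protein, had 32.5, 85.2, 71.3 and 9.64 TPM. A noncoding gene on the opposite strand overlaps 16.8% of its exonic bases and had at most 10 counts.

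Larger ranges were found for the genes that act on viral RNA. Ifit3, a member of the family of RNA-binding IFIT proteins, had 0.0652, 78.3, 65.1 and 5.55 TPM. Ifit1, which binds viral RNA that lacks the cellular cap methylation, had 1.80, 41.7, 54.2 and 0 TPM. Against the 3 counts that a library with 0 counts allows, Ifit1 was at least 496-fold higher in mouse 3 than in mouse 4. This bound covers counting error only, since PCR copies are not independent molecules. Ifit3 has a near-identical copy, Ifit3b, over 97.4% of its transcript, with 0, 516, 969 and 237 counts, so that reads of the 2 genes may have been split or lost. Ifit1, Ifit3 and Ifit3b each had their 2 highest counts in mice 2 and 3.

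Oas1a, an oligoadenylate synthetase that activates RNase L, had 0, 54.3, 20.6 and 0 TPM. The whole of the transcript is near-identical to Oas1g, which had 0, 2, 238 and 111 counts, so the level of Oas1a is uncertain. The related Oasl2 had 1.71, 33.2, 23.7 and 6.92 TPM. Both synthetase genes were highest in mouse 2. Xaf1, a promoter of apoptosis, had 5.24, 35.4, 23.1 and 6.09 TPM, and Rtp4, a receptor transport protein that restricts some viruses, had 6.69, 11.3, 53.2 and 9.49 TPM.

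A few effectors were seen in 1 mouse only. Mx1, a dynamin-like GTPase of which C57BL/6 mice carry a defective allele, had 0, 0, 0 and 5.09 TPM from 199 counts in mouse 4. Oas2 had 0, 0, 1.85 and 0 TPM from 142 counts in mouse 3. The other effectors had medians from 0.696 TPM for Rsad2, which encodes viperin, to 7.93 TPM for Usp18, the protease that removes ISG15 and damps the type I receptor. Isg15, the ubiquitin-like modifier, lies among them and is named because its promoter is shown above. It had 0, 115, 208 and 0 counts, or 0, 13.7, 15.9 and 0 TPM, and copies cover 63.8% of its transcript, of which AC151275.1 had at most 73 counts.

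The summed level of the 5 interferon-inducible GTPases varied more between mice than that of any other role, although the median CV of the single genes was 104% for GTPases and 107.9% for effectors. Gbp2, a guanylate-binding protein, had 0, 64.2, 87.3 and 12.3 TPM. Against 3 counts in mouse 1 it was at least 1288-fold higher in mouse 3, a bound that covers counting error only, as for Ifit1. Igtp, an immunity-related GTPase, had 7.03, 114, 171 and 14.1 TPM. Gbp3 had 0.0174, 72.3, 17.5 and 2.67 TPM, with only 1 count in mouse 1. Iigp1 had 0.527, 38.6, 41.9 and 13.0 TPM. Irgm1 had 3.71, 32.1, 15.6 and 0 TPM, and was the only one of the 5 with 0 counts in mouse 4. The summed level of the 5 genes was 11.3, 321, 333 and 42.0 TPM, a CV of 98.4%, whereas the summed level of the 7 class I genes had a CV of 22.6%. Igtp shares 8.01% of its exonic bases with Irgm2.

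The 3 nucleic acid sensors were low in every mouse. Ddx58, which encodes the RNA sensor RIG-I, had between 1.15 and 11.7 TPM and was lowest in mouse 3. Zbp1, a sensor of Z-form nucleic acids, had between 1.08 and 11.5 TPM, and Ifih1, which encodes MDA5, had between 3.75 and 8.42 TPM. Their summed level was 8.16, 23.4, 21.1 and 21.6 TPM.

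Many members were high in the same mice, as the plot of deviations from each gene's mean shows by role. For each gene the 2 libraries with the highest TPM were noted, where they could be told from the rest. For 31 of 43 members (72.1%) these were the libraries of mice 2 and 3, against 19.5% of the 13130 genes with a mean TPM above 1. Mice 1 and 3 were the 2 highest in 4 members, against 27.6% of genes. Mice 2 and 4 were so in 3, mice 3 and 4 in 3, mice 1 and 2 in 1, and mice 1 and 4 in 1, against 12%, 16%, 12% and 12.9% of genes. This pair of mice was noticed in the values and the members share the same 4 libraries, so the count is a description and was not tested.

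By role, mice 2 and 3 were the 2 highest in 14 of 17 effectors and brakes, 5 of 5 GTPases, 6 of 7 class I genes, 2 of 5 transcription factors, 2 of 4 IFITM genes, 1 of 4 receptor chains and 1 of 3 sensors. Mx1 and Oas2, of the 17 effectors, had counts in 1 mouse only and could not be ranked, which leaves 43 members. Among these 43 members the highest level was in mouse 2 for 22, in mouse 3 for 18, in mouse 1 for 2 and in mouse 4 for 1, against 25.7%, 29.6%, 25.6% and 19.2% of genes. The lowest level was in mouse 1 for 20 of 41 members, against 21.3% of genes, and in mouse 4 for 15, a share near the 30.6% of genes. Without Bst2 and Ifi27, which hold most of the sum, the other 20 effectors and GTPases summed to 64.6, 719, 692 and 89.9 TPM in mice 1 to 4.

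**Figure D3:**
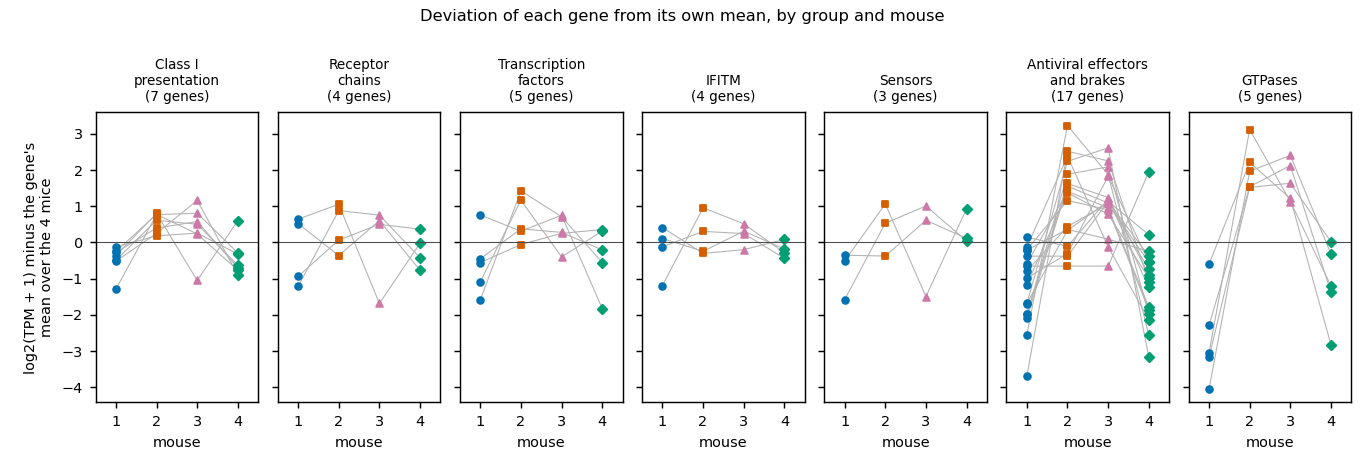
log2(TPM + 1) of each gene minus its own mean over the 4 mice, by mouse and role, with a grey line for each gene. In the panels of effectors and GTPases most points of mice 2 and 3 lie above 0 and most points of mice 1 and 4 below it, whereas receptor chains, IFITM genes and sensors show no common order of mice.

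The summed MSC markers were 1124, 4706, 2431 and 1302 TPM, of which Cxcl12, the chemokine that retains blood stem cells in the marrow, made up 983, 4329, 2224 and 1079 TPM. Without Cxcl12 the other 7 markers summed to 141, 377, 207 and 223 TPM, so that mice 2 and 4 were highest. Of the 8 markers 2 had mice 2 and 3 as their 2 highest libraries and 4 had mice 2 and 4. Mouse 2 and mouse 4 had the shallower libraries, with 26050230 and 22738604 counts, and mouse 1 and mouse 3 the deeper ones, with 43545349 and 42747050. TPM was also divided by the sum of all 8 MSC markers, most of which is Cxcl12. Mice 2 and 3 were then the 2 highest in 13 of 43 members, against 3.82% of genes. Dividing by this sum does not separate MSC content from the level of Cxcl12. The part of MSC content or depth in the order of the mice was not tested. In bulk libraries fewer cells that express a gene and less RNA per cell cannot be told apart.

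The spread of the members between mice was set beside that of all genes at the same level. Among the 21 members with a mean from 10 to 100 TPM the median CV was 83.1%, against 42.4% over all 4673 genes in this range, and 17 of the 21 were above that value. Counting error alone gives a median of 2.96% for these members and 3.08% for the genes. It leaves out error from sampling and amplifying the RNA of 100 cells, since PCR copies are not independent molecules. For the 6 members above 1000 TPM the median CV was 30.8%, against 17.4% over 101 genes, and 6 of 6 were above the latter. B2m and Ifitm5 were close to that value, with a CV of 18.3% each. For the 13 members from 1 to 10 TPM the median CV was 83.7%, no higher than the 89.6% over 8584 genes. The 4 members from 100 to 1000 TPM had a median of 44.4%, against 23.5% over 911 genes. Members with an ISRE core had a median CV of 103% (from 18.3% to 146%, 16 genes), and those with a promoter but no core 50.5% (from 18.3% to 144%, 18 genes). These ranges overlapped almost fully, since B2m has a core and Ifit2 has none. The 2 sets also differed in level, with a median of the members' medians of 16 TPM with a core and 44.6 TPM without. The part of level in the CV was not tested.

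**Figure D4:**
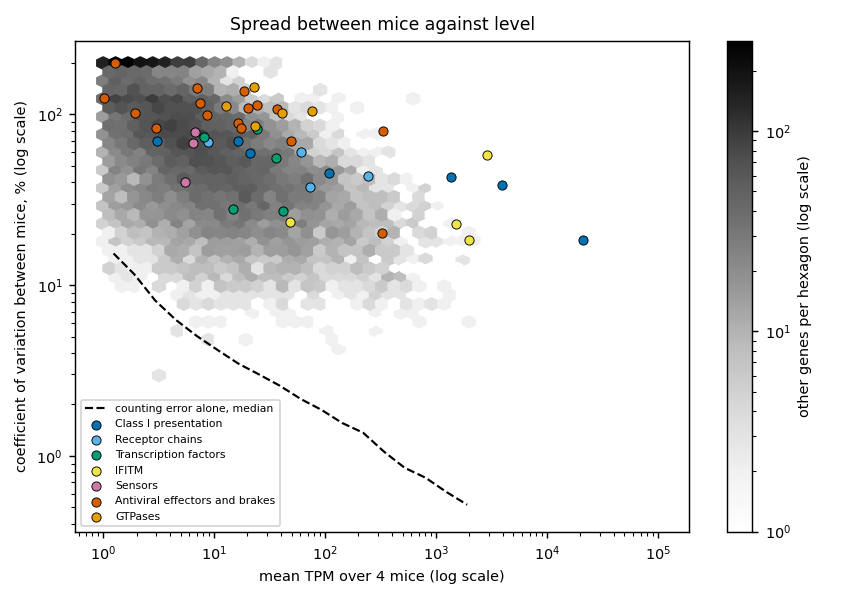
CV between the 4 mice against mean TPM, both on log scales, for 44 members with a mean above 1 TPM (coloured by role) and all other such genes (grey hexagons), with the median CV from counting error alone as a broken line. Effectors and GTPases from 10 to 100 TPM lie in the upper part of the grey cloud. Both the members and the other genes lie above the broken line, which leaves out error from amplification.

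Markers of the sorted cells and of other marrow cells were measured in the same libraries. All 8 MSC markers were above 1 TPM in every mouse, as were 7 of 7 osteoblast markers, whose sum was between 102175 and 197228 TPM. Of 6 macrophage markers 0 had a median above 1 TPM, with Adgre1, Csf1r and C1qa at 0 in every mouse, and the sum was 0.533, 0.254, 16.1 and 1.01 TPM. The endothelial sum was between 0.0465 and 1.28 TPM, with Kdr and Cdh5 at 0, and the T and NK cell sum was at most 0.0177 TPM. The sum of 4 plasmacytoid dendritic cell markers was between 10.4 and 16.6 TPM, nearly all of it Tcf4, and Siglech had 1 count in all. Neutrophil markers summed to 39.7, 19.7, 6.84 and 7.84 TPM and B and plasma cell markers to 8.94, 0.0357, 0 and 14.5 TPM. Erythroid markers summed to 4980, 35.0, 1708 and 358 TPM, so their order over mice was not that of the effectors and GTPases.

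**Figure D5:**
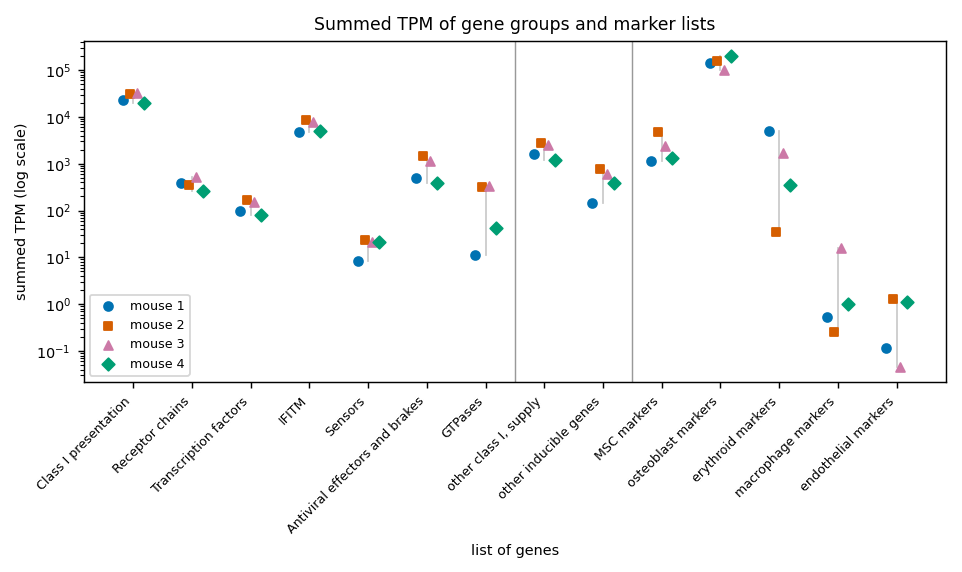
Summed TPM on a log scale in each mouse for the 7 roles, for 2 further gene lists and for 5 marker lists. The class I genes, transcription factors, IFITM genes, effectors, GTPases, both further lists and the MSC markers have mice 2 and 3 highest. The MSC sum is carried by Cxcl12. The receptor chains, the sensors and the osteoblast, erythroid, macrophage and endothelial markers have other orders.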

How the data were processed

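RNA of 100 sorted MSCs from each of 4 mice was made into cDNA by oligo-dT priming with template switching, then amplified and tagmented. Alignment to GRCm39 was done by the authors with STAR (2.7.10 in the submitters' processing notes), according to the Supplementary Methods. They counted unique pairs on exons with featureCounts (Subread 1.6.5) without a strand option. The authors deposited raw counts. The main Methods describe another pipeline for the same comparison, and the text specific to MSCs was taken to apply. Libraries held between 22738604 and 43545349 counts. Counts were divided by the merged exon length of GENCODE M21 (GRCm38, joined by gene identifier, no coordinates converted) and scaled to 1000000 as TPM. Since this annotation differs from that of the counts, a TPM can be off by the ratio of the lengths, and 4855 genes without a length were left out.

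Members, gene lists and comparisons were chosen with earlier results of these data known. Values in every mouse are given for members with a median above 10 TPM, for receptor chains and class I genes, for members with 90% of their TPM in 1 mouse and at least 30 counts there, and for the 2 highest genes of each further pathway list; others were named after their values were seen. Python 3.11.15, numpy 2.4.6, pandas 2.3.3 and scipy 1.17.1 were used, the statistics were tested on simulated data, and copies were searched with BLAST 2.17.0 at 95% identity over at least 100 bases in the annotated transcripts. Alternatives were scaling by edgeR 4.0.16 TMM factors or DESeq2 1.42.0 size factors, transcript length, counts scaled without length (CPM), a cutoff of 5 TPM, a minimum of 10 counts, a pseudocount of 0.1, thinning to the smallest library and leaving out each mouse. The alternatives for the 2 highest libraries and for the CV were added after seeing the data. The planned identity of IFITM and class I proteins was not computed, as no protein table was used here. Floors of 3 counts cover counting error only, since PCR copies are not independent molecules.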

Additional observations from a re-analysis of the deposited data

Results flagged for a closer look

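For each member and each role sum, the distance of the highest or lowest mouse from its nearest neighbour was set against the range over the 4 mice, and 5 of 52 values were past Dixon's limit for 4 samples. For independent, normally distributed values the limit passes about 1 in 20, or 2.6 of 52. The TPM hold zeros and the role sums are built from the members, so 5 of 52 cannot be judged against this number. Ifit2, an RNA-binding effector, had 3.04, 21.97, 3.05 and 0 TPM, with mouse 2 apart from the others (ratio 0.861). Rtp4 stood apart in mouse 3 (ratio 0.901), with 53.2 TPM against at most 11.3 TPM elsewhere. Mx1 had counts only in mouse 4 and Oas2 only in mouse 3, which gives the highest possible ratio of 1.0 for each. The summed nucleic acid sensors stood apart in mouse 1, where they were lowest, with 8.16 TPM against at least 21.1 TPM elsewhere (ratio 0.847).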

How the results depend on the processing

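Among the alternatives for the counts, differences and spreads, the pair differences could change in size, and all but Ifitm3 minus Ifitm5 kept their sign. Tap1 minus Tap2 was 0.67 with the longest transcript as length and 0.87 as CPM, against 0.34 as reported. The count of members with mice 2 and 3 as the 2 highest libraries was 31 of 43 (19.5% of genes) as reported. It was 13 of 43 (3.82% of genes) when TPM was divided by the summed MSC markers. This divisor is a single number for each mouse that moves all genes alike. Cxcl12 made up most of it, and the other 7 markers had mice 2 and 4 highest. The count was 30 of 43 with TMM or DESeq2 factors and 31 of 43 as CPM. It was 21 of 32 where no mouse was under 10 counts, and 21 of 30 without members that have copies. DESeq2 factors moved the median log2 level of all genes by -0.145 in mouse 3 and by 0.10 in mouse 4. Leaving out each mouse in turn gave 40 to 43 members above 1 TPM by median, 29 to 35 in every mouse and 33 to 37 with at least 3 counts in every mouse, with Isg15 and Oas1a lost without mouse 2 or mouse 3. The difference of Ifitm3 minus Ifitm5 ranged from -0.037 to 0.80 and reversed without mouse 2, and the cause was not tested. The other ranges were 0.53 to 1.11 for Ifitm3 minus Ifitm2, -1.61 to -1.47 for H2-K1 minus H2-D1 and 0.14 to 0.60 for Tap1 minus Tap2. For the receptor pairs they were -3.65 to -2.40 for Ifnar1 minus Ifnar2, 1.55 to 2.54 for Ifngr1 minus Ifngr2 and 4.06 to 5.30 for Ifngr1 minus Ifnar1. The median CV of members from 10 to 100 TPM ranged from 68.4% to 107.6%. With the longest transcript as length, the mean of B2m was 16690 TPM, that of Ifitm5 1546 TPM and that of Irf3 55.04 TPM. No paired analysis was possible because the libraries form 1 group, so that no group shares their numbers. With 4 mice no test of gene pairs within mice can reach 0.05.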

Other observations

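Further genes of the interferon response outside the 45 members were measured as well. Of 32 other interferon-inducible genes 22 had a median above 1 TPM, but only 7 were above it in every mouse, and 3 (Gbp4, Oas3 and Ccl5) had 0 counts in every mouse. Their sum was 143, 769, 611 and 393 TPM, lowest in mouse 1 as for the GTPases. The highest were Lgals3bp, a secreted glycoprotein, with 21.8, 338, 234 and 144 TPM, and Ly6e, a membrane-anchored protein that restricts some viruses, with 56.7, 103, 132 and 99.6 TPM. Ly6a, which encodes the interferon-inducible antigen Sca1 that the sort excluded, had 0.0472, 8.95, 0 and 11.6 TPM and is named after its values were seen.

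Of 11 sensing adaptors and kinases 9 had a median above 1 TPM and 2 were above it in every mouse. Sting1, the adaptor of cytosolic DNA sensing, had 17.6, 0.426, 14.9 and 19.0 TPM and was lowest in mouse 2, while Mavs, the adaptor of RIG-I and MDA5, had 1.84, 19.7, 26.7 and 9.66 TPM and was lowest in mouse 1. Class II presentation was patchy. Of 7 genes 3 had a median above 1 TPM and 0 were above it in every mouse. H2-DMb1, a chain of the class II peptide editor, had 48.6, 0, 64.2 and 0.403 TPM and its partner H2-DMa 1.75, 8.92, 3.21 and 0 TPM. H2-Aa had 0 counts in every mouse, and Cd74, the invariant chain, had 116 counts in mouse 3 and 0 elsewhere.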
